A study of Homo sapiens with 6 samples.

Results

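The MYC, MAX and MXD network was measured in SCC-9 cells, a human cancer cell line of the tongue with squamous features, with and without knockdown of MTHFD2, a mitochondrial enzyme of folate metabolism. The genes were taken by name: MYC, MAX, MXD1, MXD3, MXD4, MXI1, MNT, MLX and MGA. All 9 were found among the 17862 genes of the expression table and all 9 passed the filter on low counts. Both groups were kept in DMEM/F12 medium that held serum (10% FBS) and hydrocortisone (400 ng/mL), and both received short hairpin RNA plasmids, a control hairpin in shNC and a hairpin against MTHFD2 in shMTHFD2, with 3 libraries each. The labels describe a knockdown, while the design text calls the cells knock-out and states 3 biological replicates per condition. The number of hairpin sequences, the time after delivery and whether the cells were clones or pools were not stated in the labels. No label says that the libraries came from separate deliveries of the plasmids, so a p-value reflects how far the libraries of a group lie from each other.

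MYC is a transcription factor that binds DNA only as a dimer with MAX, at E-box sequences with the core CACGTG, and drives genes of growth, ribosome production and metabolism. The MXD proteins (MXD1, MXI1, MXD3 and MXD4), MNT and MGA compete for the same partner and the same sites. MXD proteins and MNT repress through the SIN3 corepressor, and MGA works within a Polycomb complex. MLX is the partner of MLXIP and MLXIPL, the glucose-sensing factors also called MondoA and ChREBP, and can also pair with MXD1, MXD4 and MNT. In squamous epithelium the MYC to MXD balance is known for its change as cells leave the cycle and differentiate.

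In shMTHFD2 the repressor-side genes MXI1 and MXD4 rose, MXI1 by 1.68-fold and MXD4 by 1.63-fold. MYC was lower in every knockdown library than in every control library, at a mean of 70.4% of control, but was not called after adjustment over all tested genes. MAX, MXD1 and MNT were high in shMTHFD2 replicate 2, while in the other knockdown libraries MAX and MNT were within or near the control range and MXD1 lay on both sides of it. Of the 9 genes, 2 rose and 0 fell by edgeR's quasi-likelihood test with an adjusted p under 0.05, where 5.43% of 13710 tested genes changed in either direction. In these bulk libraries fewer cells of a kind and less RNA per cell cannot be told apart. Of the 9, 3 lay above and 1 below the control range in every knockdown library, where the groups did not overlap for 37.8% of all tested genes. At an unadjusted p under 0.05, 3 were higher and 1 lower, where 28.7% of tested genes reached that level. Levels are given in TPM, a relative transcript abundance scaled per gene length, which allows comparison between genes. Fold changes come from the estimated read counts, each with its standard error (SE), and p-values are adjusted by Benjamini-Hochberg over all tested genes.

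The libraries held 18676999 to 19838989 estimated counts each, and the network genes 168.94 (MXD3) to 8568 (MYC) counts per library. MTHFD2 itself was at 160, 168 and 150 TPM in shNC and at 38.5, 29.1 and 58.5 TPM in shMTHFD2 replicates 1, 2 and 3 (log2 -1.95, SE 0.21, adjusted p = 0.00924). The 12 epithelial markers, among them KRT5, KRT14 and TP63, were all at 1 TPM or more in all 6 libraries. The 5 endothelial markers stayed at or under 0.45 TPM. Of 8 fibroblast markers 1 reached 1 TPM in every library, COL1A1, and the list summed to 6.16 to 8.92 TPM in shNC and 13 to 24.45 TPM in shMTHFD2, highest in replicate 2. The 7 leukocyte markers summed to 143.71 to 160.05 TPM in shNC and 145.67 to 209.25 TPM in shMTHFD2, of which CD68, a lysosomal protein that is also found outside leukocytes, took most. The part of these markers in the results below was not tested. On the first principal component of log2 CPM, which carried 63% of the variance, the scores ran from -34 to -19.2 in shNC and were 20.7, 61.3 and -3.2 in shMTHFD2 replicates 1, 2 and 3, so values are given library by library.

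**Figure D1:**
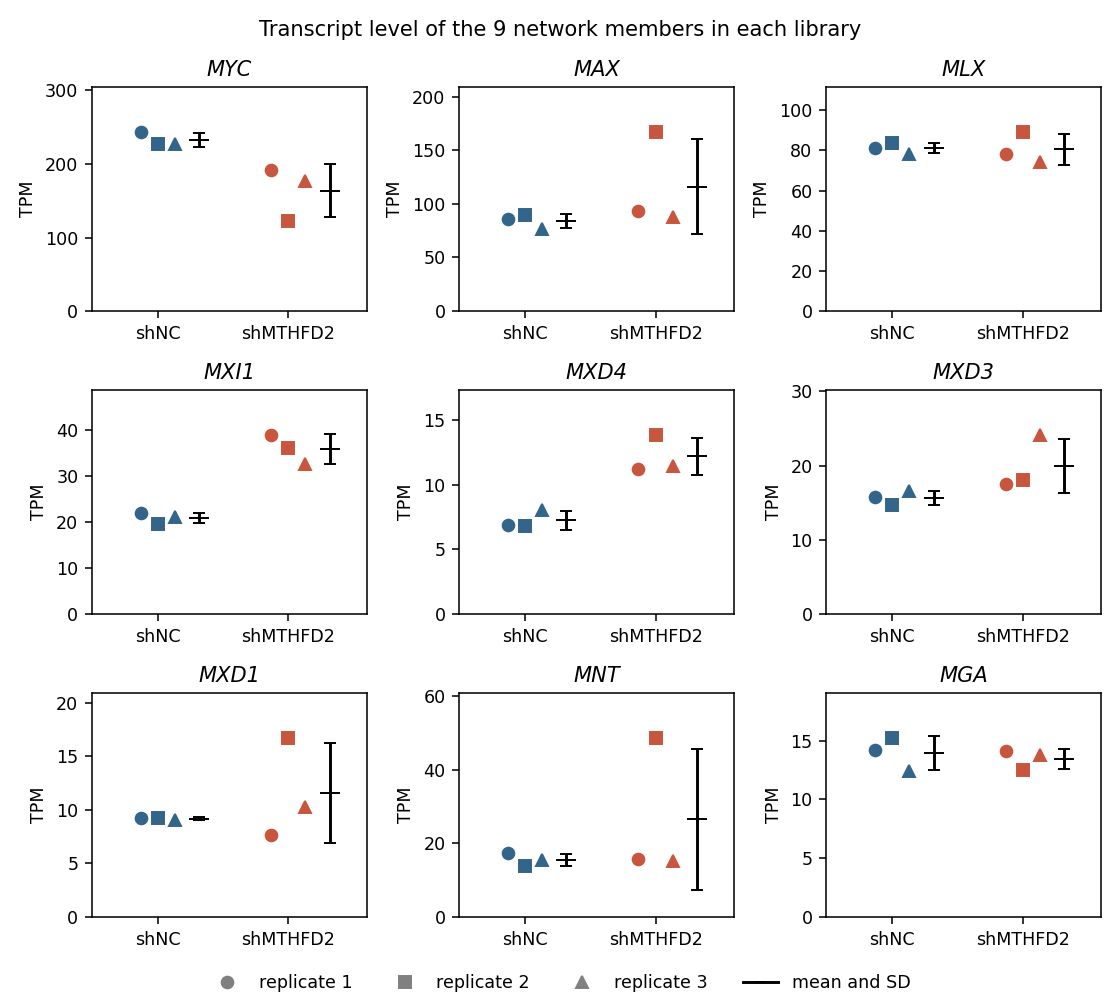
TPM (y axis, from 0) of each of the 9 genes in the 3 shNC and 3 shMTHFD2 libraries; symbols mark the replicate, and the black bar is the mean with SD. MYC lay lower and MXI1, MXD4 and MXD3 higher in all 3 knockdown libraries, while MNT, MAX and MXD1 were high in shMTHFD2 replicate 2.

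MYC, the activator of the network, was its most abundant transcript. It was at 243, 227 and 227 TPM in shNC replicates 1, 2 and 3 and at 192, 123 and 176 TPM in shMTHFD2 replicates 1, 2 and 3. The groups did not overlap, and replicate 2 was the lowest. The means were 232 ± 9.66 against 164 ± 36.3 TPM (SD, n = 3 each), and the fitted log2 change was -0.56 (SE 0.16, adjusted p = 0.0755). MYC passed without shMTHFD2 replicate 2 (log2 -0.38, adjusted p = 0.0298), where 14.2% of all genes passed. It also passed in DESeq2 (log2 -0.55, adjusted p = 0.0213), where 14.5% passed. MYC did not pass in any other setting. The adjusted p in edgeR was 0.0549 to 0.276 with any other library left out and 0.143 with the replicate number as a block.

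Of the other MYC family genes, MYCL was at 1.89 to 2.65 TPM in shNC and at 3.39 to 5.2 TPM in shMTHFD2, higher in all 3 knockdown libraries (log2 0.86, SE 0.23, adjusted p = 0.0721). MYCN had at most 0.04 TPM in any library. MYCL, a paralog of MYC with a similar DNA-binding region, was thus far below MYC on the same per-length scale.

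MAX is the obligate partner of MYC, the MXD proteins, MNT and MGA. It was at 86.0, 89.4 and 76.8 TPM in shNC and at 93.3, 167 and 87.8 TPM in shMTHFD2 replicates 1, 2 and 3. Replicate 2 was the single library far from the rest, and the read counts of the groups overlapped (log2 0.33, SE 0.26, adjusted p = 0.419). Without that library the log2 fold change was -0.047 (adjusted p = 0.763).

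MXI1, an MXD family repressor also known as MXD2, had the lowest adjusted p of the 9. It was at 21.9, 19.6 and 21.0 TPM in shNC and at 38.9, 36.1 and 32.5 TPM in shMTHFD2. All 3 knockdown libraries lay well above the controls, with replicate 1 the highest. MXI1 rose from 20.8 ± 1.15 to 35.9 ± 3.19 TPM (SD, n = 3 each), by 0.75 on the log2 scale of the fit (SE 0.11, adjusted p = 0.0208).

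MXD4, a related repressor that is known from quiescent and differentiating cells, was at 6.86, 6.77 and 8.06 TPM in shNC and at 11.2, 13.8 and 11.5 TPM in shMTHFD2. The groups did not overlap and replicate 2 was the highest. MXD4 rose from 7.23 ± 0.72 to 12.2 ± 1.44 TPM (SD, n = 3 each), by 0.70 on the log2 scale of the fit (SE 0.15, adjusted p = 0.0427). Both calls ended without any 1 of the shNC replicates (adjusted p = 0.102 to 0.154 for MXI1 and 0.111 to 0.221 for MXD4) and without shMTHFD2 replicate 1 (0.0914 and 0.119), while the log2 fold changes over these omissions stayed at 0.68 to 0.78 for MXI1 and 0.66 to 0.79 for MXD4. Without shMTHFD2 replicate 2 both still passed (adjusted p = 0.0056 and 0.0174).

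Across settings the count of network genes called was read against all genes. It was 0 without shNC replicates 1, 2 or 3 or shMTHFD2 replicate 1, where 0.00716, 0.00716, 0.0358 and 0.194% of genes passed, and 3 and 2 without shMTHFD2 replicates 2 and 3, where 14.2 and 26.3% passed. DESeq2 called 3, MYC, MXI1 and MXD4, where 14.5% of genes passed. MXI1 and MXD4 were the 2 genes called with other scalings of the library sizes (DESeq2 size factors 5.2%, upper quartile 4.85%, unscaled totals 4.95% of all genes), with no filter (3.65%) or a minimum of 5 CPM (4.81%), and with limma-voom (5.06%) or limma on log2 TPM with a pseudocount of 1 (4.75%) or 0.1 (4.83%).

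The 250 bases before the start of these 2 genes that rose are shown for comparison, from RefSeq on GRCh38.p14, 5′ to 3′ along the gene, with the E-box core in capitals wherever it occurs. MXI1 has 3 starts in that table and its first is shown.
MXD4 (chr4:2262110-2262359, minus strand): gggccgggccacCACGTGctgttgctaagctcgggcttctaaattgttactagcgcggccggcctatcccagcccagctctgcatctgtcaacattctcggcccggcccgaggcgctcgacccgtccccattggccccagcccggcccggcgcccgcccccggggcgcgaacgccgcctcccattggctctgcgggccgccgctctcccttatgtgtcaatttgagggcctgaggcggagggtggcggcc
MXI1 (chr10:110207355-110207604, plus strand): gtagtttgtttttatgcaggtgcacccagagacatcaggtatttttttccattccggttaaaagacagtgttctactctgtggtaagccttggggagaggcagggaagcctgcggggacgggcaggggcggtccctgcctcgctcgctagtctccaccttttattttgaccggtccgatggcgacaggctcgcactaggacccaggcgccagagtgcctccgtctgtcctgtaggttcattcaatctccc
The MXD4 stretch held 1 CACGTG, 238 bases before the start, and the MXI1 stretch held none. The GC content was 70.4% for MXD4 and 55.6, 76.4 and 66.8% at the 3 starts of MXI1, on both sides of the median of 64% over the same stretch of tested genes.

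MXD3, the MXD family member known from cycling cells, was at 15.8, 14.6 and 16.5 TPM in shNC and at 17.6, 18.0 and 24.1 TPM in shMTHFD2. The groups did not overlap, but in TPM replicates 1 and 2 were both close to the control range. In CPM only replicate 1 was, at 9.78 against 8.76 to 9.31 in shNC and 12.6 in replicates 2 and 3. The log2 fold change was 0.36 (SE 0.15, adjusted p = 0.156). MXD1, known for its induction during differentiation, was at 9.25, 9.24 and 9.04 TPM in shNC and at 7.68, 16.7 and 10.3 TPM in shMTHFD2. The controls agreed closely while the knockdown libraries lay on both sides of them (log2 0.29, SE 0.27, adjusted p = 0.497). Without shMTHFD2 replicate 2 the MXD1 log2 fold change was -0.091 (adjusted p = 0.632).

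MNT, the broadly expressed antagonist of MYC, was at 17.3, 13.8 and 15.4 TPM in shNC and at 15.8, 48.6 and 15.2 TPM in shMTHFD2. Its level in replicate 2 was 1.64 above the control mean on the log2 CPM scale, the largest deviation of the 9 genes in any library, while replicates 1 and 3 stood at 0.010 and -0.060. The log2 fold change of 0.76 (SE 0.44, adjusted p = 0.285) rested on that library and was -0.011 without it (adjusted p = 0.956).

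MGA, the largest protein of the network and a scaffold of a Polycomb complex, was at 14.2, 15.2 and 12.4 TPM in shNC and at 14.1, 12.5 and 13.8 TPM in shMTHFD2. The groups overlapped (log2 -0.11, SE 0.12, adjusted p = 0.536). None of the 9 other subunits tested was called: edgeR, DESeq2 and limma-voom each gave 0, and 3 were lower in edgeR before adjustment (p under 0.05), where 14.1% of all tested genes were. The median log2 fold change of the 9 was -0.10. The lowest adjusted p was that of TFDP1, the E2F partner, at 186 to 215 TPM in shNC and 95.1 to 185 TPM in shMTHFD2 (log2 -0.56, SE 0.21, adjusted p = 0.133), followed by E2F6 (log2 -0.36, adjusted p = 0.133) and the heterochromatin protein CBX3 (log2 -0.33, adjusted p = 0.143).

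**Figure D2:**
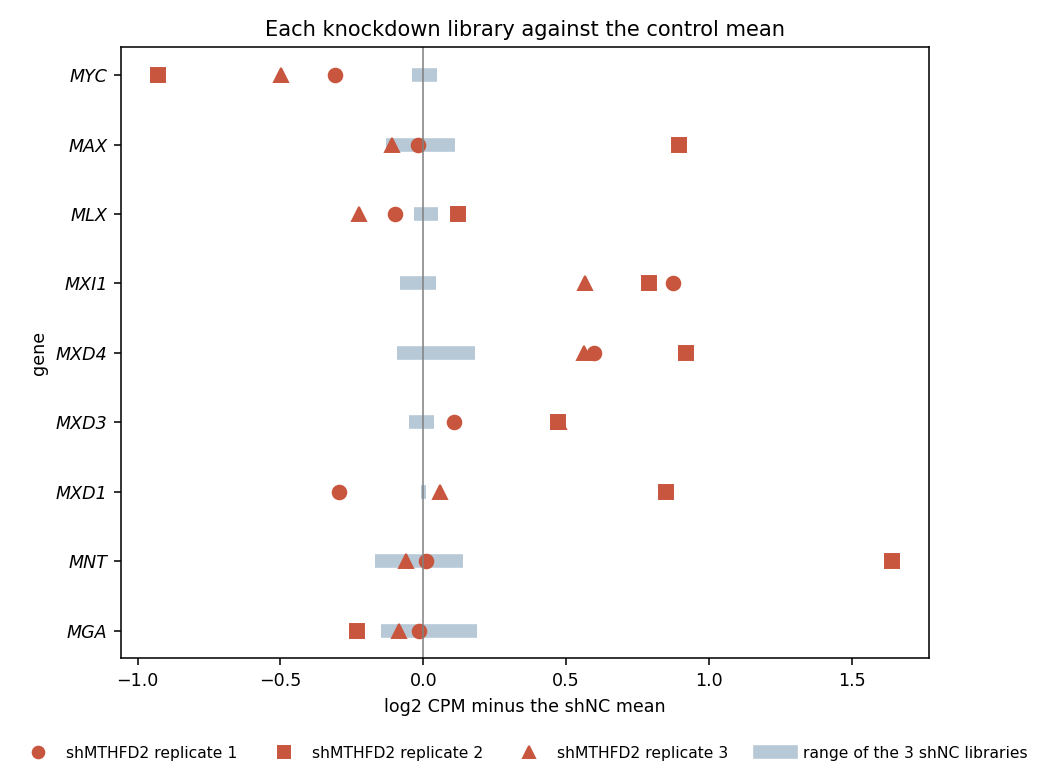
Log2 CPM minus the mean of the 3 shNC libraries (x axis) for each of the 9 genes (y axis). Symbols are the shMTHFD2 replicates and the grey-blue bar spans the shNC libraries; MXI1 stood at 0.57 to 0.87 and MYC at -0.93 to -0.31, while the MNT, MAX and MXD1 values of replicate 2 stood at 0.85 to 1.64.

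The order of the levels was read per length within each group. In shNC it ran MYC, MAX, MLX, MXI1, MXD3, MNT, MGA, MXD1 and MXD4, from 232 down to 7.23 TPM. The ranges of neighbours overlapped between MAX and MLX, MXD3 and MNT, and MNT and MGA. In shMTHFD2 the means of MYC, MAX, MLX and MXI1 were again the highest. The ranges overlapped between MYC and MAX, MAX and MLX, MXI1 and MNT, MNT and MXD3, and MGA and MXD4. In replicate 2 MAX (167 TPM) exceeded MYC (123 TPM) and MNT (48.6 TPM) exceeded MXI1 (36.1 TPM). MXD4, lowest of the 9 in shNC, stood at 12.2 TPM against 11.6 TPM for MXD1 in shMTHFD2, with overlapping ranges.

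The transcripts of the MAX partners were summed per library as a description of the balance at the RNA level, which says nothing of protein. MYC made up 74.1, 74.1 and 73.3% of the summed TPM of MYC, MXD1, MXD3, MXD4, MXI1, MNT and MGA in shNC. It made up 64.5, 45.7 and 62.2% in shMTHFD2 replicates 1, 2 and 3. Every knockdown library lay below the controls, replicate 2 by the widest margin. The sum of the 6 partners other than MYC went from 82.3 ± 2.96 to 120 ± 22.8 TPM (SD, n = 3 each), while the sum of all 7 was 315 ± 12.3 against 283 ± 14.3 TPM. In shMTHFD2 replicates 1, 2 and 3 the sum of the 6 was 105, 146 and 107 TPM, of which MNT gave 15.8, 48.6 and 15.2 TPM.

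The ratio of MYC to MXI1 transcripts was 11.1, 11.6 and 10.8 in shNC and 4.92, 3.4 and 5.42 in shMTHFD2. The ratio of MAX to MYC was 0.339 to 0.395 in shNC, and 0.487, 1.36 and 0.498 in shMTHFD2 replicates 1, 2 and 3. In replicate 2 alone MAX transcripts outnumbered those of MYC.

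**Figure D3:**
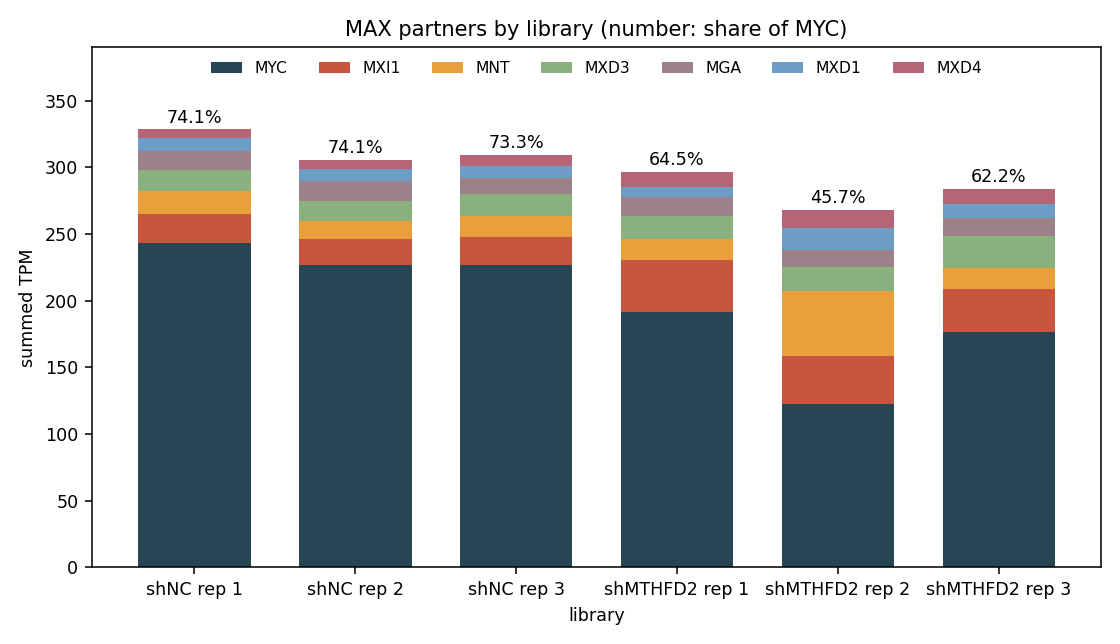
Stacked TPM (y axis, from 0) of the 7 MAX partners in each library (x axis); the number above each bar is the share of MYC. The share was 73.3 to 74.1% in shNC and 45.7 to 64.5% in shMTHFD2.

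MLX was at 81.3, 83.8 and 78.5 TPM in shNC and at 78.1, 89.2 and 74.5 TPM in shMTHFD2, with overlapping groups (log2 -0.061, SE 0.11, adjusted p = 0.73). Its partner MLXIP was at 20.6 to 23.5 TPM in shNC and 21.9 to 24.5 TPM in shMTHFD2 (log2 0.039, SE 0.10, adjusted p = 0.812). The other partner, MLXIPL, was low, at 0.32 to 0.46 TPM in shNC and at 0.89, 2.22 and 0.39 TPM in shMTHFD2 (log2 1.78, SE 0.63, adjusted p = 0.123). MLX, MLXIP and MLXIPL thus gave 0 calls in edgeR. Of the relatives MYCL, MLXIP and MLXIPL, edgeR and limma-voom called 0 of 3, and 2 were higher in edgeR before adjustment (p under 0.05), where 14.6% of all tested genes were. DESeq2 called 1 of these relatives higher, where it called 7.69% of all genes higher.

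Among 10 tested carbohydrate-response genes, which these dimers are known to activate, 2 rose and 2 fell, where 2.97% of all tested genes rose and 2.47% fell. The median log2 fold change was -0.20. The calls were 0 without any 1 shNC replicate, where 0.00716 to 0.0358% of all genes changed. Without shMTHFD2 replicate 1 the call was 1 lower, where 0.194% of all genes changed. Without shMTHFD2 replicate 2 the calls were 3 higher and 2 lower, where 14.2% of all genes changed. The arrestin-family genes TXNIP and ARRDC4 rose. TXNIP, best known of the MondoA targets, was at 74.6, 57.8 and 113 TPM in shNC and at 544, 972 and 301 TPM in shMTHFD2. ARRDC4 was at 6.89 to 10.5 TPM in shNC and 17.8 to 39.4 TPM in shMTHFD2. The lipid synthesis genes FASN (log2 -0.72, SE 0.11, adjusted p = 0.0228) and SCD (log2 -0.98, SE 0.15, adjusted p = 0.0215) fell, and both also belong to the sterol-responsive genes. Among genes of this list KLF10 (log2 0.14), ACACB (log2 0.24) and PFKFB3 (log2 -0.12) did not pass and overlapped the controls. ACACA (log2 -0.48, adjusted p = 0.0643), ELOVL6 (log2 -0.35, adjusted p = 0.0958) and ACLY (log2 -0.28, adjusted p = 0.161) did not pass either. These last were below the control range in all 3 knockdown libraries. DESeq2 called 2 genes of the list higher and 3 lower, where it called 7.69% of all genes higher and 6.82% lower. With limma-voom 2 were higher and 2 lower, where 5.06% of all genes changed.

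Genes that MYC is known to activate were then counted in 4 lists of 68 genes in all, drawn up with earlier results of these data known. Of the 68, 16 fell (23.5%) and 0 rose, where 2.47% of all tested genes fell and 2.97% rose. At an unadjusted p under 0.05, 38 were lower and 1 higher, where 14.1% of all tested genes were lower and 14.6% higher. The median log2 fold change was -0.43 (-0.35, -0.53 and -0.36 for shMTHFD2 replicates 1, 2 and 3 against the control mean), beside 0.008 over all tested genes. In all 3 knockdown libraries 49 of the 68 lay below and 1 above the control range, where 19.7% of all tested genes lay below and 18.1% above. By library left out, the number that fell was 0 without any 1 shNC replicate or without shMTHFD2 replicate 1. There 0.00716 to 0.194% of all genes changed in either direction. The number was 31 and 32 without shMTHFD2 replicates 2 and 3, where 14.2 and 26.3% of all genes changed.

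Among nucleolar and ribosome assembly genes 7 of 24 fell, where 2.47% of all tested genes fell. NOP56, a box C/D snoRNP protein, was at 251, 267 and 230 TPM in shNC and at 155, 117 and 159 TPM in shMTHFD2 (log2 -0.85, SE 0.12, adjusted p = 0.0204). MRTO4, a ribosome assembly factor, was at 82.4 to 98.3 TPM against 54.5 to 65.4 TPM (log2 -0.64, SE 0.11, adjusted p = 0.0266). BYSL and NIP7, which act in ribosome assembly, fell by 0.54 and 0.50 on the log2 scale (adjusted p = 0.0291 for each). The others that fell were NCL, NOP58 and BOP1, with log2 fold changes of -0.66, -0.48 and -0.48. NOLC1, POLR1B, GNL3 and RRP12 had positive log2 fold changes, of 0.10, 0.32, 0.14 and 0.10, and did not pass. Each was highest in shMTHFD2 replicate 2 and below the control range in replicate 3. In shMTHFD2 replicates 1, 2 and 3 NOLC1 was at 158, 226 and 146 TPM and POLR1B at 21.5, 30.1 and 15.3 TPM. GNL3 was at 137, 193 and 123 TPM and RRP12 at 37.9, 79.4 and 26.7 TPM. Against the control mean the median of the 24 genes was -0.37, -0.19 and -0.49 in shMTHFD2 replicates 1, 2 and 3. It was thus least negative in replicate 2, where MYC was lowest.

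Among metabolic targets 6 of 21 fell, where 2.47% of all tested genes fell. The neutral amino acid transporter SLC7A5 was at 1682 to 1998 TPM in shNC and 590 to 952 TPM in shMTHFD2 (log2 -1.28, SE 0.17, adjusted p = 0.0173). The glutamine transporter SLC1A5 was at 311 to 344 TPM against 130 to 175 TPM (log2 -1.19, SE 0.15, adjusted p = 0.0137). The polyamine enzymes ODC1, at 91.8, 99.5 and 74.7 TPM in shNC and 27.7, 20.8 and 49.3 TPM in shMTHFD2 (log2 -1.51, SE 0.28, adjusted p = 0.0329), and SRM (log2 -0.91, SE 0.18, adjusted p = 0.0358) fell. The purine enzyme PAICS (log2 -0.65) and FASN completed this group. HK2 and PPAT had positive log2 fold changes, of 0.41 and 0.19, and did not pass.

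Among translation and mitochondrial targets 3 of 12 fell, where 2.47% of all tested genes fell, and all 12 had negative log2 fold changes. The mitochondrial chaperonin HSPE1 (log2 -0.63, SE 0.11, adjusted p = 0.0275), the prohibitin PHB (log2 -0.52, SE 0.12, adjusted p = 0.0492) and the matrix protein C1QBP (log2 -0.43, SE 0.09, adjusted p = 0.0459) were the ones that fell. The partner chaperonin HSPD1 had a log2 fold change of -0.49 (adjusted p = 0.0624). The number of these targets that fell was 1 with the other scalings or filters and with limma on log2 TPM. In those settings 3.65 to 5.2% of all genes changed. DESeq2 called 6 lower, where it called 6.82% of all genes lower.

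Of 11 cell cycle targets edgeR and limma-voom called 0 and DESeq2 called 3, all lower, where it called 6.82% of all genes lower. Before adjustment 4 were lower in edgeR (p under 0.05), against 14.1% of all tested genes. The phosphatase CDC25A was at 11.7 to 14.6 TPM in shNC and at 7.8, 4.89 and 9.98 TPM in shMTHFD2 (log2 -0.84, SE 0.23, adjusted p = 0.0744). The list's median against the control mean was -0.32, -1.12 and -0.24 in shMTHFD2 replicates 1, 2 and 3. Among the 4 target lists, replicate 2 lay furthest from the other knockdown libraries in this one.

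Of 8 tested genes that MYC is known to repress, 4 rose and 0 fell, where 2.97% of all tested genes rose, and the median log2 fold change was 0.30. The calls were 0 without any 1 shNC replicate or shMTHFD2 replicate 1, where 0.00716 to 0.194% of all genes changed. They were 4 higher and 3 lower without shMTHFD2 replicate 2 or 3, where 14.2 and 26.3% of all genes changed. The iron storage chain FTH1 was at 4293 to 4689 TPM in shNC and 7355 to 7539 TPM in shMTHFD2 (log2 0.66, SE 0.09, adjusted p = 0.0195). The CDK inhibitor CDKN1C was at 0.53 to 0.89 TPM against 2.53 to 8.39 TPM (log2 2.88, SE 0.47, adjusted p = 0.0256), and CDKN1B at 7.08 to 7.96 TPM against 11.6 to 16.6 TPM (log2 0.81, SE 0.17, adjusted p = 0.0423). The stress gene NDRG1 was at 207 to 265 TPM against 391 to 674 TPM (log2 1.22, SE 0.20, adjusted p = 0.0256). THBS1 (log2 -1.03, adjusted p = 0.055), GADD45A (log2 -0.61, adjusted p = 0.0588) and CCND1 (log2 -0.64, adjusted p = 0.114) were below the control range in all 3 knockdown libraries and did not pass, and CDKN1A was at log2 -0.053 (adjusted p = 0.815). DESeq2 called 4 genes of the list higher and 3 lower, where it called 7.69% of all genes higher and 6.82% lower. With limma-voom 4 were higher and 0 lower, where 5.06% of all genes changed.

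**Figure D4:**
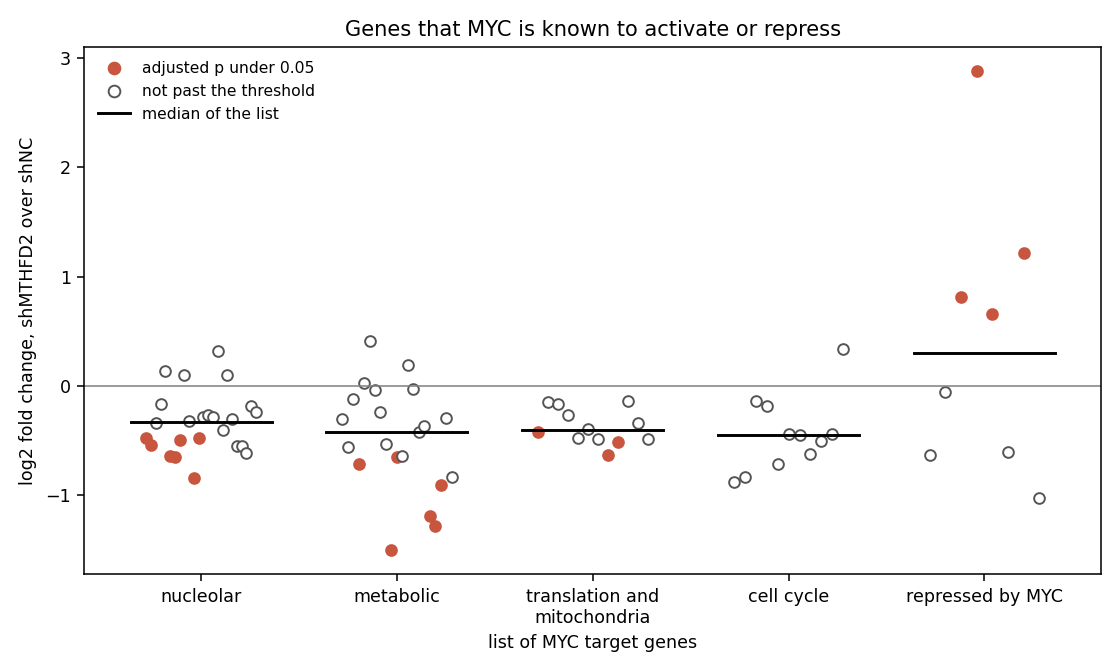
Log2 fold change of shMTHFD2 over shNC (y axis) for genes of 4 lists that MYC is known to activate and 1 that it is known to repress (x axis). Filled points passed an adjusted p of 0.05 and the black line is the median of the list; the 4 medians of activated genes lie at -0.45 to -0.33, and 16 of their 68 genes fell.

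E-boxes in the promoters of these genes are shown because CACGTG is the core that MYC and MAX or MXD and MAX bind. The search covered CACGTG, which reads the same on both strands, from 250 bases before to 50 bases after each RefSeq start. It was found at 12.4% of 11140 tested genes with a promoter entry. It was found at 25 of 56 MYC targets with an entry (44.6%) and at 8 of the 13 with an entry that fell (61.5%). These genes were listed as known MYC targets and the windows were not matched for GC content, so the shares are a description. Of the 8 network genes with an entry, MXD4, MNT and MLX held it. Each line gives 26 bases or fewer around the motif from RefSeq on GRCh38.p14, 5′ to 3′ along the gene, with CACGTG in capitals; the first 3 are network genes and the rest targets that fell.
MXD4 (chr4:2262332-2262357, minus strand): gccgggccacCACGTGctgttgctaa
MNT (chr17:2401238-2401263, minus strand): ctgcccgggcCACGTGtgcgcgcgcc
MLX (chr17:42567040-42567065, plus strand): gggcgcgggtCACGTGggcacgccac
ODC1 (chr2:10448026-10448051, minus strand): gggccccgggCACGTGtgcggcgcgc
ODC1 (chr2:10447992-10448017, minus strand): cctgcggagaCACGTGgtcgccgagc
SRM (chr1:11060202-11060227, minus strand): ggccgggcccCACGTGgcccctggag
SLC7A5 (chr16:87869622-87869647, minus strand): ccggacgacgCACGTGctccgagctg
SLC1A5 (chr19:46787328-46787353, minus strand): cgggagtggtCACGTGgacaggacgg
PAICS (chr4:56435782-56435801, plus strand): gtatttgctgCACGTGgaaa
MRTO4 (chr1:19251809-19251834, plus strand): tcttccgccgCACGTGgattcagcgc
BYSL (chr6:41921517-41921542, plus strand): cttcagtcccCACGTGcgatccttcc
HSPE1 (chr2:197500347-197500372, plus strand): gtgattttttCACGTGtcgccagggc
ODC1 held 2 copies at one of its 2 starts. SLC1A5 and MLX held theirs 50 bases before the start, HSPE1 22 bases, SLC7A5 130 bases, MNT 193 bases and SRM 199 bases before it, while those of MRTO4, BYSL and PAICS lay 14, 28 and 40 bases after it. A match is a sequence in a window, and binding was not measured.

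Cofactors of the network mostly did not pass. Of 17 genes of the SIN3 corepressor, through which the MXD proteins and MNT act, 1 fell (5.88%) and 0 rose, a share close to the 5.43% of all tested genes that changed. The median log2 fold change was -0.14. The count was 0 without any 1 shNC replicate or shMTHFD2 replicate 1, where 0.00716 to 0.194% of all genes changed. It was 1 higher and 3 lower without shMTHFD2 replicate 2, where 14.2% of all genes changed. It was 2 lower without shMTHFD2 replicate 3 or in DESeq2, where 26.3 and 14.5% of all genes changed. The gene that fell was BRMS1, at 92.5 to 104 TPM in shNC and 59.6 to 72.8 TPM in shMTHFD2 (log2 -0.64, SE 0.10, adjusted p = 0.0228). The deacetylase HDAC2 was next (log2 -0.42, SE 0.10, adjusted p = 0.058), while ARID4A (log2 0.36, adjusted p = 0.111) was higher and SAP18 (log2 -0.28, adjusted p = 0.172) lower in all 3 knockdown libraries.

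Of 15 MYC coactivators edgeR and limma-voom called 0 and DESeq2 called 1, which was lower, where it called 6.82% of all genes lower. Before adjustment 5 were lower in edgeR (p under 0.05), against 14.1% of all tested genes, and the median log2 fold change was -0.084. The acetyltransferases CREBBP (log2 -0.52, SE 0.14, adjusted p = 0.0742) and EP300 (log2 -0.30, adjusted p = 0.0931) and the adaptor WDR5 (log2 -0.33, adjusted p = 0.0841) had the lowest adjusted p. Of 18 genes of MYC protein turnover edgeR and limma-voom called 0 and DESeq2 called 2, both lower, while 3 were lower in edgeR before adjustment (p under 0.05), with a median log2 fold change of -0.12. The phosphatase scaffold PPP2R1A was at 105 to 106 TPM in shNC and 87.9 to 91.4 TPM in shMTHFD2 (log2 -0.29, SE 0.08, adjusted p = 0.0822).

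The genes whose profile over the 6 libraries came closest to that of MYC, MXI1 and MXD4 were found by the root mean square difference of centred log2 CPM, among 10990 others with a mean of at least 5 CPM. For MYC these were TMEM185B, HOMER3 and INAFM2, at differences of 0.0458, 0.0502 and 0.0579, against a spread of 0.343 for MYC itself. For MXI1 they were ADM, the peptide hormone adrenomedullin, the niacin receptor HCAR2 and EPB41L4B, at 0.052, 0.056 and 0.0567 against 0.385. For MXD4 they were the ATP-gated channel P2RX4, the galactokinase GALK1 and ALS2CL, at 0.0286, 0.0427 and 0.0618 against 0.376. The likeness rests on 6 libraries and is a description.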

How the data were processed

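Expression of 17862 genes was measured in 3 shNC and 3 shMTHFD2 libraries, grouped by their titles. Per the file headers the table holds read counts, TPM, FPKM and normalized counts. The authors' read counts are estimated counts, since only 53 to 56% of values are whole within 0.001. TPM and FPKM, as deposited, correct for gene length. The normalized counts, a deposited signal with 1 factor per library, were not used. The submitters' processing notes name mm10, a mouse build, for cells labelled human. No source used here gives the aligner, counting tool or strand handling, so overlapping and near-identical genes are uncertain. Coordinates belong to RefSeq sequences on GRCh38.p14 and not to the table.

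Counts were rounded to whole numbers, filtered with filterByExpr, scaled by TMM and compared with edgeR 4.0.16 (R 4.3.3) by the robust quasi-likelihood test, with Benjamini-Hochberg adjustment over 13710 genes called at 0.05. The common coefficient of variation that edgeR estimated between libraries of a group, a single value for both groups, was 16.7%. The test was checked on simulated data with the same variation for all genes and libraries. The wider spread among the shMTHFD2 libraries was not simulated. Alternatives were limma 3.58.1, DESeq2 1.42.0, other scalings and filters, the replicate number as a block and each library left out. Log2 CPM used a prior count of 2. Levels at a count of 0 could be up to 0.161 CPM, for counting error only. The network genes, lists and tests were chosen with earlier results of these data known. Named were the 9 network genes, MTHFD2, the 4 lowest adjusted p of each list and the 3 nearest profiles; other list genes were named after their values were seen. PHB1 was matched as PHB by Entrez identifier, and CDKN2B and MS4A1 were not analysed here. Some list genes that this rule names are not reported here. Figures used matplotlib 3.10.9.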

Additional observations from a re-analysis of the deposited data

How the results depend on the processing

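The count of genes changed over the whole table, 745, moved to 1983 with DESeq2, to 33 at an adjusted p under 0.01, and ranged from 1 to 3651 with 1 library left out. Of the 9 network genes, 2 changed, against 0 at an adjusted p under 0.01 and 0 to 3 with 1 library left out. Of the 68 MYC targets, 16 changed, against 29 with DESeq2, 0 at an adjusted p under 0.01, and 0 to 33 with 1 library left out. Without shMTHFD2 replicate 2 the log2 fold changes of MAX, MNT and MXD1 turned to -0.047, -0.011 and -0.091, and without shMTHFD2 replicate 3 that of MLX turned to 0.030. With 1 library left out in turn the ranges ran from -0.047 to 0.519 for MAX, -0.011 to 1.05 for MNT, -0.091 to 0.5 for MXD1 and -0.142 to 0.030 for MLX. The cause was not tested.

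The replicate number as a block left 16 changed genes in the table, 0 of the network genes and 0 of the MYC targets. Deviations from the group means of libraries with the same number correlated at 0.001, -0.237 and -0.187, and 0 of the 3 shNC libraries correlated best with its own number, so the numbers were not taken as pairs. The share of MYC among MAX partners was 57.5% in shMTHFD2 and 73.8% in shNC with TPM and with FPKM. Under the other scalings the median log2 fold change of all genes was at most 0.068, beside 0.008 with TMM. MXD3, at 168.94 to 252.32 counts, has the fewest counts of the 9 genes and the widest counting error.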

Other observations

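The length that the deposited TPM implies for a gene, its counts over its TPM relative to the other genes of a library, was compared with the shNC mean. It stayed within 2% in all 6 libraries for 66% of 9628 genes at 5 TPM or more. MXD1 and MXD4 stood at 100% in every library. MAX was at 100.2, 101.5 and 98.4% in shNC and at 91.3, 94.5 and 95.0% in shMTHFD2, so that its TPM was higher than its counts alone would give in all 3 knockdown libraries. The groups were more than 2 percentage points apart, as for MAX, in 195 of the 9628 genes. MXD3 was at 121.8% in shMTHFD2 replicate 2 and at 95.8 to 103.1% in the other 5 libraries. The transcript forms behind these values were not analysed here.

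Over the whole table, CACGTG was found in the promoter window of 18.5% of 271 genes that fell and 10.3% of 311 genes that rose, beside 12.4% of all tested genes. The related CACGCG, or CGCGTG on the other strand, was found at 29.2%, 21.2% and 21.5%. These shares are a description, and the windows were not matched for GC content.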
